A study of Mus musculus with 9 samples.

Results

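The comparison of cells given the P-Mn/TI@mHSA particle with cells given PBS covered every gene that passed a count filter, 12454 of the 56748 genes in the deposited table, in 6 of the 9 RNA sequencing libraries of the study. All libraries came from RAW264.7, an established mouse macrophage cell line, kept under an unnamed model condition. The 3 PBS libraries are the control of that model. The 3 P-Mn/TI@mHSA libraries came from cells given, in the same condition, a nanoparticle that carried nanoenzymes, which are materials with enzyme-like activity, together with an inhibitor of TRAF6. The other 3 libraries came from cells given P-Mn@mHSA, a particle with the nanoenzymes and without the inhibitor. They served here to estimate the spread and, beside single genes, as a second comparison. No group received the inhibitor alone, so the inhibitor and the particle that carried it cannot be told apart against PBS. The labels give no dose or time, and they do not say whether the triplicates were separate cultures, so the p-values describe the spread among these libraries, part or all of which may be technical.

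TRAF6 is a ubiquitin ligase that relays signals from Toll-like receptors and the interleukin-1 receptor family. The adaptor MyD88 and the IRAK kinases bring it into the receptor complex, and the ubiquitin chains it builds recruit the kinase TAK1, which switches on NF-kB and the MAP kinases. In macrophages this route induces cytokines, chemokines and the inducible nitric oxide synthase, and in osteoclast precursors TRAF6 also relays the signal of the receptor RANK.

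Against PBS, the libraries of the inhibitor-carrying particle had lower transcript levels of most cholesterol synthesis enzymes and of Cybb, the catalytic subunit of the phagocyte oxidase. They had higher levels of many hypoxia-responsive genes, glycolytic enzymes, DNA replication genes and interferon-stimulated genes. Inflammatory mediators moved both ways, with Ccl22, Csf3, Il1b and Ptges lower and Lif and Csf1 higher, and so did macrophage genes, with Adgre1, Lyz2 and Mpeg1 lower and Csf1r higher. Traf6 (chromosome 2) itself was not called. It stood at 39.7, 42.8 and 42.4 CPM (TMM-scaled counts scaled to a common library size) with PBS and at 47.9, 42.0 and 41.5 CPM with P-Mn/TI@mHSA, the groups overlapped, and its log2 fold change was 0.07 (edgeR adjusted p 0.481). That value depended on scaling: it was -0.01 with total counts alone and 0.28 (edgeR adjusted p 0.00416, called higher) with offsets for the GC content and length of transcripts, a fit made because of the trend described with the libraries. A gene is called here when edgeR's quasi-likelihood test, adjusted over all genes by Benjamini-Hochberg, gives a p under 0.05. Between the 2 particle groups 3.82% of genes were called. Cybb had 782 to 791 unscaled counts with P-Mn@mHSA and 730 to 895 with P-Mn/TI@mHSA. In the same order, hypoxia genes summed to 5370 to 5540 and 5340 to 5450 CPM. Sums over gene lists, here and below, were scaled to the library total only, without TMM. Glycolysis genes (37900 to 39000 and 37200 to 38900) and cholesterol genes (2330 to 2550 and 2200 to 2390) also overlapped. Interferon genes (11700 to 12100 and 9040 to 10100) and replication genes (6860 to 7030 and 7610 to 7710) did not.

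The call was common: 54.4% of the genes tested passed, 27.1% higher (3378 genes) and 27.3% lower (3403 genes), so a count of called members says something about a gene list only against these shares. At a fold of 2 or more, 330 genes were higher (2.65%) and 912 were lower (7.32%). At a fold of 4 or more, 87 genes were higher and 152 lower, and at 8 or more 29 were higher and 51 lower. The genes called higher by 2-fold or more took 0.923% of the counts with PBS and 2.13% with P-Mn/TI@mHSA, and those called lower by 2-fold or more took 3.75% and 1.26%. The median log2 fold change of all genes was -0.01, with quartiles of -0.39 and 0.29, and in 61.5% of genes the 3 libraries of each group did not overlap in CPM. In bulk RNA, a lower share of cells that express a gene and a lower level per cell cannot be told apart.

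Total counts of the 6 libraries ran from 13994570 to 15543439. At least 1 count was found for 17356 to 17737 genes with PBS and for 16779 to 17021 with P-Mn/TI@mHSA. Across genes, log2 CPM correlated at Pearson r 0.99 to 0.9915 within a group and 0.9589 to 0.9684 between the groups. Counts of mitochondrially encoded genes made up 1.77 to 2.2% of a PBS library and 1.11 to 1.34% of a particle library. The 10 genes used as markers of RNA quality summed to 651 to 985 CPM with PBS and to 189 to 209 CPM with P-Mn/TI@mHSA. Most of each sum came from the nuclear RNAs Malat1 and Neat1, and 5 of the 10 genes had no count in any of the 9 libraries. The part of RNA quality in the results was not tested. Several genes that mark macrophages were abundant in both groups. Their lowest CPM over the 6 libraries was 1562 for Csf1r, 463 for Lyz2, 530 for Cd68 and 938 for Cd14. Others, among them Adgre1 and Mpeg1, were less abundant, and their falls are given with the macrophage markers below. Marker genes of other cells were near the limit of detection: 13 granulocyte and mast cell genes summed to 0.132 to 2.57 CPM, and 17 fibroblast, epithelial and endothelial genes to 2.06 to 5.31 CPM. The 17 lymphocyte genes summed to 53.1 to 72.9 CPM, most of it Ighm, and 9 of them, 5 of the granulocyte and 5 of the stromal genes had no count in any of the 9 libraries.

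The GC content of transcripts moved with the groups. GC content of the longest transcript, known for 12309 of the tested genes, correlated across genes with the log2 fold change at Pearson r 0.39 and Spearman rho 0.491 (genes are not independent replicates), whereas log2 transcript length gave r -0.0499. Genes were split into 5 equal bins by GC content. In the bin with the lowest, 29.6 to 43.9%, 63.5% were called lower and 5.12% higher, with a median log2 fold change of -0.49. In the bin with the highest, 55.4 to 75.5%, 10.6% were lower and 47.2% higher, with a median of 0.25. The relation to GC content also showed within single libraries: relative to the mean of all 9, log2 CPM correlated with GC content at -0.433 to -0.348 in the PBS libraries, 0.325 to 0.538 in the P-Mn/TI@mHSA libraries and -0.034 to 0.34 in the P-Mn@mHSA libraries. The part of this trend in the results was not tested directly. A second fit, chosen after this trend was seen, therefore gave each library offsets for GC content and length. Under these offsets 6176 genes were called, 3316 higher and 2860 lower, with 24.2 to 29.4% higher and 21.7 to 26% lower in every bin. Of the 3378 genes called higher, 2334 stayed so, of the 3403 called lower 2138 stayed so, and 147 turned from lower to higher. Of the 330 genes higher by 2-fold or more, 310 kept their call, and of the 912 lower ones 798 did, while the number lower by 2-fold or more was 553 with offsets. Values with these offsets are given beside the named genes whose call they end or whose direction they turn.

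**Figure D1:**
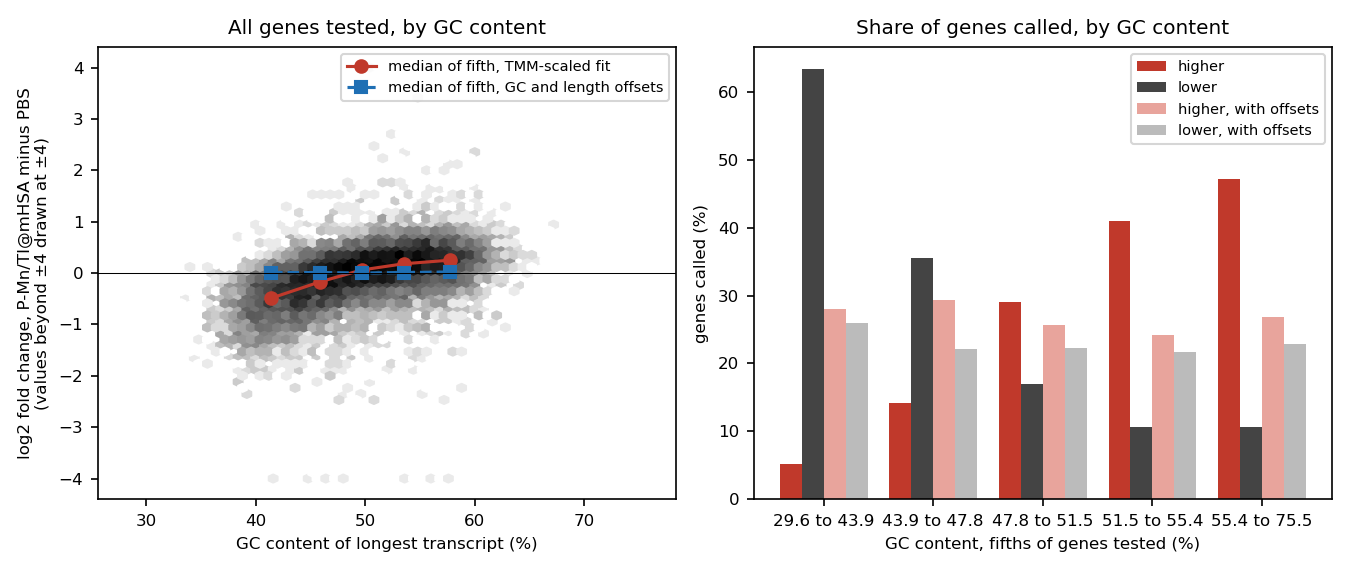
Left, log2 fold change (P-Mn/TI@mHSA minus PBS, vertical axis) against the GC content of the longest transcript (horizontal axis, %) for the genes tested, darker where genes are denser, with the median of each of 5 equal GC bins without (red) and with (blue) GC and length offsets. Right, the share of genes called higher or lower in each bin (%), without offsets in full colour and with them in pale colour: called lower runs from 63.5% in the lowest bin to 10.6% in the highest without offsets, and lies between 21.7 and 26% with them.

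Among the 12 largest rises that the naming rule selected were genes of secreted signals, of G-protein control and of the circadian clock. Il33 (ENSMUSG00000024810, chromosome 19), an alarmin of the interleukin-1 family that the nucleus stores, stood at 1.93, 2.39 and 2.09 CPM with PBS and at 27.0, 24.6 and 19.7 CPM with P-Mn/TI@mHSA. Every particle library lay far above every PBS library, an 11.1-fold rise with a log2 fold change of 3.47 ± 0.164 (SE, n = 3 per group, edgeR adjusted p 3.06e-13). Angptl2 (chromosome 2), a secreted angiopoietin-like glycoprotein, went from 25.9, 24.2 and 28.8 CPM to 196, 216 and 203 CPM, with a log2 fold change of 2.96 ± 0.0809 (edgeR adjusted p 9.03e-17). Ciart, a repressor in the circadian clock, rose 7.77-fold, and its 3 values with the particle, 29.1, 30.7 and 28.4 CPM, lay within a narrow band above 4.61, 3.62 and 3.11 CPM with PBS. Rgs2, which shortens G-protein signals, rose 7.33-fold, and Plk2, a polo-like kinase and p53 target, rose 7.47-fold from 25.9, 21.4 and 30.4 CPM to 202, 212 and 167 CPM. Plau, the urokinase plasminogen activator, rose 5.76-fold, from 35.8, 41.2 and 40.2 CPM to 227, 228 and 220 CPM. Its level also exceeded that with P-Mn@mHSA, where its mean was 154 CPM (log2 difference 0.55, edgeR adjusted p 0.000105). Across all genes 3.82% were called between the 2 particle groups, 1.48% higher and 2.34% lower with P-Mn/TI@mHSA.

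The largest falls included matrix, lipid and protease-inhibitor genes beside inflammatory mediators. Col5a3 (ENSMUSG00000004098, chromosome 9), a chain of fibrillar type V collagen, stood at 138, 139 and 137 CPM with PBS and at 9.49, 10.7 and 7.24 CPM with P-Mn/TI@mHSA, and no library of one group came near the other (log2 fold change -3.91 ± 0.114, edgeR adjusted p 1.22e-16). Urah, 5-hydroxyisourate hydrolase of urate breakdown, fell 9.5-fold from 61.8, 52.1 and 63.5 CPM to 6.23, 6.002 and 6.43 CPM. Pdpn, the membrane mucin podoplanin, fell 7.6-fold, from 44.6, 34.9 and 47.7 CPM to 6.03, 6.26 and 4.42 CPM. Mmp9, gelatinase B, fell 6.63-fold to a mean of 5.33 CPM, and Slpi, the secretory leukocyte protease inhibitor, 5.42-fold from 61.1, 59.2 and 57.3 CPM to 10.4, 13.7 and 8.64 CPM. Fabp5, a fatty-acid carrier, fell 5.55-fold and Upp1, uridine phosphorylase, 5.39-fold. Each of these 7 falls was called with GC and length offsets too, with log2 fold changes of -4.17 to -2.52. Measured by CPM lost, the nuclear genes with the largest losses were Spp1, Fth1, Akr1b3 and Lyz2. Spp1, osteopontin, stood at 5902, 6212 and 6092 CPM with PBS and 1959, 2106 and 1902 CPM with the particle (3.05-fold lower), and Akr1b3, aldose reductase, at 2613, 2698 and 2021 CPM against 507, 487 and 586 CPM (4.64-fold lower).

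**Figure D2:**
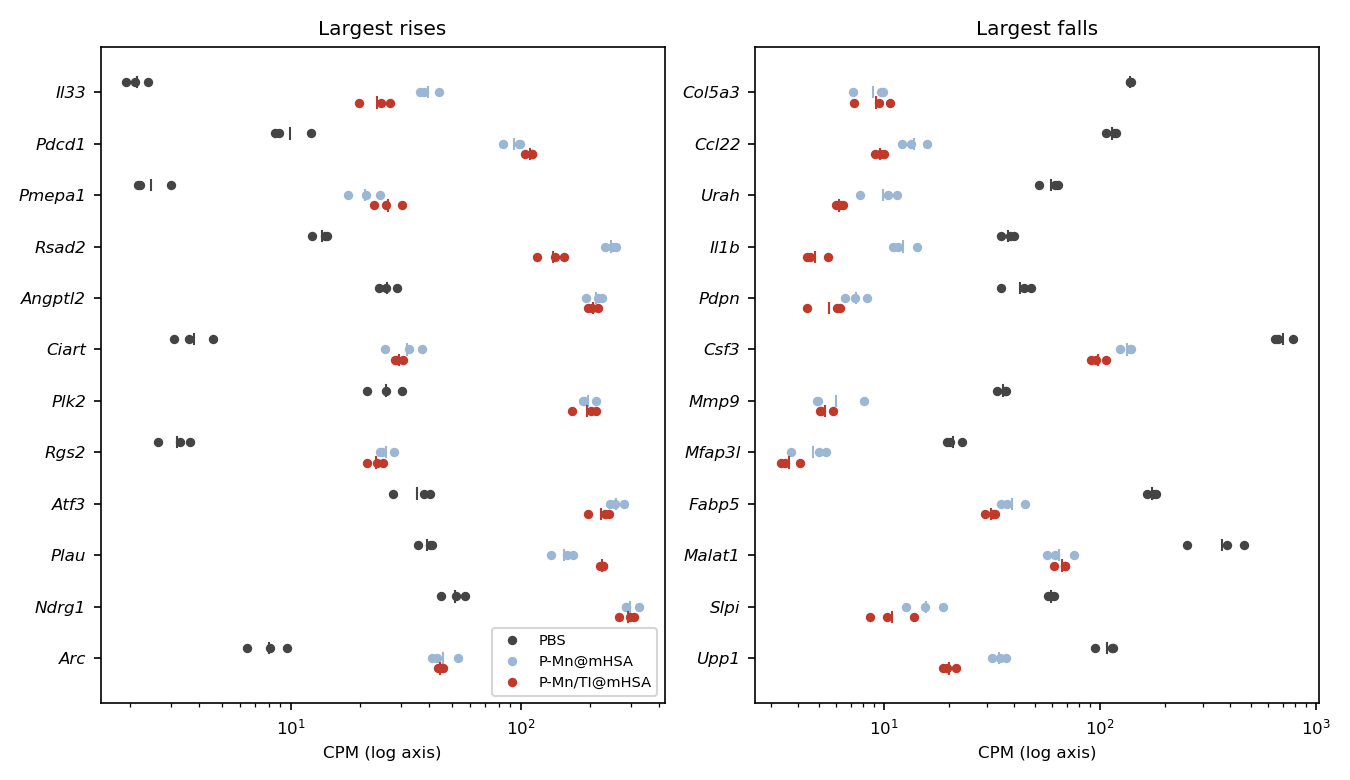
CPM on a log axis of the 12 largest rises (left) and 12 largest falls (right) that the naming rule selected, 1 point per library and a tick at the group mean. In every gene shown the 3 P-Mn/TI@mHSA points (red) and the 3 PBS points (dark) do not overlap, from Il33 at 11.1-fold to Arc at 5.53-fold and from Col5a3 at 15.1-fold to Upp1 at 5.39-fold.

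**Figure D3:**
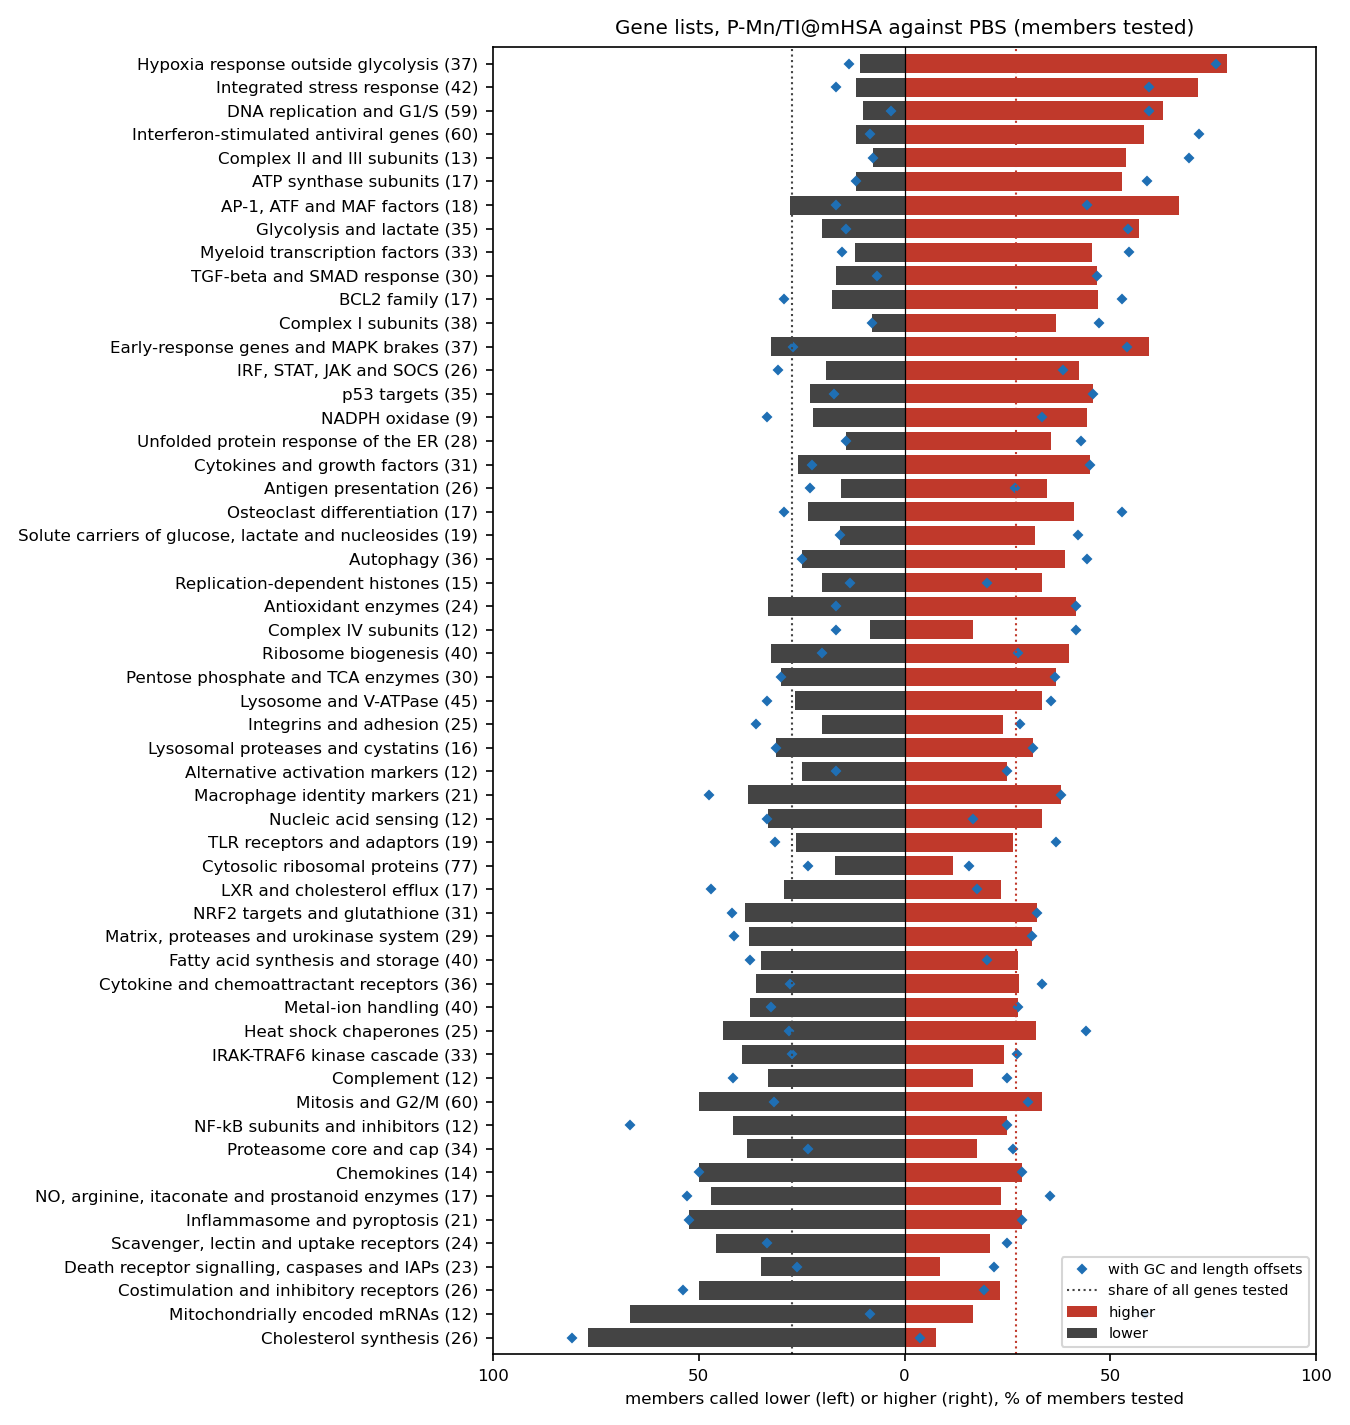
Share of the tested members of each gene list called higher (right, red) or lower (left, dark) with P-Mn/TI@mHSA, in % of members tested, with the number tested in brackets, the same shares with GC and length offsets (blue diamonds) and the shares over all genes as dotted lines at 27.1% and 27.3%. Hypoxia-responsive genes stand at the top with 29 of 37 higher, and cholesterol synthesis genes at the bottom with 20 of 26 lower. Lists with fewer than 9 tested members are not drawn.

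The receptors and adaptors upstream of TRAF6 were called higher or lower about as often as all genes. Of 19 tested of 22 in the table, 5 were higher, 5 lower and 9 not called, with a median log2 fold change of -0.01. That is 26.3% in each direction, against 27.1% higher and 27.3% lower over all genes. Tlr4, the endotoxin receptor, stood at 27.0, 29.9 and 26.3 CPM with PBS and at 10.1, 14.8 and 12.5 CPM with the particle, with no overlap (2.22-fold lower, edgeR adjusted p 3.6e-07). Its co-receptor Cd14 fell 1.48-fold, from 1379, 1332 and 1525 CPM to 968, 938 and 954 CPM, and Tlr1, which pairs with TLR2 to detect lipoproteins, fell 1.81-fold. Cd180, a Toll-like receptor relative that lacks a signalling domain, rose 1.78-fold, and the adaptor genes Ticam1, encoding TRIF, and Tirap rose 1.4-fold and 1.45-fold. Tirap overlaps Srpr on the other strand, which had 1260% of its counts, and no source used here states the counting strand, so its value is uncertain. Myd88, the adaptor that recruits the IRAK kinases, was not called, with a mean of 88.2 CPM against 96.9 CPM and a log2 fold change of 0.14 (-0.07 with offsets), and it overlaps Acaa1a on the other strand, which had 271% of its counts.

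In the kinase cascade from the IRAKs to the MAP kinases, 8 of 33 tested members were higher and 13 lower (median -0.03), and with GC and length offsets 9 and 9. The 3 falls with the lowest p were of genes that restrain or follow the pathway. Irak3, an IRAK without kinase activity that restrains Toll-like receptor signals, stood at 50.7, 54.3 and 67.9 CPM with PBS and at 12.9, 15.9 and 13.5 CPM with P-Mn/TI@mHSA, 4.09-fold lower with no overlap (edgeR adjusted p 8e-12). Irak3 overlaps Tmbim4 on the other strand, which had 189% of its counts, so its level is uncertain. Traf1 fell 1.55-fold and Tnip3, which binds the NF-kB brake A20, fell 2.02-fold. Among the members that rose, Map2k3, the kinase that activates p38, went from 200, 196 and 200 CPM to 286, 283 and 308 CPM (1.47-fold), and Rbck1 and Rnf31, subunits of the ligase that builds linear ubiquitin chains, rose 1.39-fold and 1.42-fold.

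The NF-kB subunits moved in different directions. Rela, the p65 subunit, stood at 76.1, 80.3 and 77.5 CPM with PBS and 127, 126 and 121 CPM with the particle, a 1.6-fold rise with tight triplicates (edgeR adjusted p 2.41e-08). Rel, the c-Rel subunit, stood at 86.4, 101 and 89.5 CPM and 47.0, 51.4 and 45.2 CPM, a 1.93-fold fall (edgeR adjusted p 3.11e-09). The inhibitor genes Nfkbie and Nfkbia, which NF-kB itself induces, fell 1.67-fold and 1.27-fold, and Nfkbiz, a nuclear member of the inhibitor family, rose 1.27-fold. Of the 12 members, all tested, 3 were higher and 5 lower (median -0.1). With GC and length offsets 3 rose and 8 fell (median -0.36), and Rela and Rel kept their directions at 0.38 and -0.46.

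Chemokine genes fell more often than they rose, with Ccl5 and Cxcl10 among the exceptions. Of 14 tested of 24 in the table, 4 were higher and 7 lower (median -0.26, and -0.03 with offsets). Ccl22, which draws regulatory and helper T cells, fell from 117, 107 and 119 CPM to 9.55, 10.1 and 9.04 CPM. Ccl2, the main monocyte attractant, stood at 80.1, 65.9 and 92.9 CPM with PBS and 22.6, 30.01 and 25.2 CPM with the particle (3.07-fold lower, edgeR adjusted p 1.34e-09), and Ccl9 fell 1.69-fold. Ccl5, which attracts T cells and monocytes, went the other way, from 107, 92.0 and 110 CPM to 269, 277 and 260 CPM (2.61-fold, edgeR adjusted p 4.09e-13). Cxcl10, an interferon-induced ligand of CXCR3, rose 3.26-fold from 10.7, 11.1 and 13.2 CPM to 36.4, 40.3 and 37.8 CPM, and Cxcl14 rose 3.65-fold. In each of these 6 genes the 2 groups were fully separated.

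Cytokine and growth factor genes rose more often than they fell, 14 against 8 of 31 tested of 42 in the table (median 0.23). Lif, an interleukin-6 family cytokine, stood at 81.3, 91.2 and 98.7 CPM with PBS and 322, 316 and 257 CPM with the particle (3.3-fold, edgeR adjusted p 7.43e-13). Pdgfb, a platelet-derived growth factor chain, rose 3.17-fold from 128, 132 and 152 CPM to 456, 447 and 402 CPM, and Csf1, the macrophage growth factor, 2.96-fold from 6.94, 6.08 and 6.75 CPM to 20.5, 18.3 and 19.8 CPM. Il10, an anti-inflammatory cytokine, was scarce in both groups, at 0.894, 0.547 and 1.01 CPM against 2.78, 4.50 and 3.22 CPM, and was called higher (log2 fold change 2.09 ± 0.323, edgeR adjusted p 1.35e-05). Il1b stood at 38.2, 34.7 and 40.1 CPM with PBS, 4.40, 5.48 and 4.56 CPM with P-Mn/TI@mHSA and a mean of 12.3 CPM with P-Mn@mHSA, and the difference between the particle groups was also called (log2 difference -1.35, edgeR adjusted p 8.48e-06). Its receptor antagonist Il1rn fell 1.71-fold. Csf3, the granulocyte colony-stimulating factor, fell 7.16-fold from 667, 645.6 and 784.6 CPM to 95.95, 106 and 90.84 CPM, with no overlap (edgeR adjusted p 9.03e-17). Tnf was called higher by a small amount with overlapping groups, 823, 788 and 915 CPM against 1032, 1028 and 897 CPM, and lost the call with offsets (log2 fold change 0.13, edgeR adjusted p 0.0953), as did the 1.69-fold fall of Il6 (-0.16 with offsets, edgeR adjusted p 0.473). The call of Tnf was also lost without PBS replicate 2 (0.18, edgeR adjusted p 0.0574) or P-Mn/TI@mHSA replicate 2 (0.19, edgeR adjusted p 0.057), and with total counts alone (0.15, edgeR adjusted p 0.0792).

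Among receptors for these signals, 10 of 36 tested were higher and 13 lower (median -0.03), and with offsets 12 and 10 (median 0.01). Csf1r, the receptor of Csf1, rose from 1562, 1735 and 1639 CPM to 2454, 2294 and 2474 CPM (1.46-fold, edgeR adjusted p 3.27e-07). Ccrl2, a decoy-type chemerin receptor, rose 2.89-fold and C5ar1, the receptor of complement fragment C5a, 1.57-fold. Il10ra stood at 95.8, 90.7 and 92.0 CPM with PBS and at 48.0, 44.8 and 44.5 CPM with the particle (2.03-fold lower, edgeR adjusted p 2.59e-10), and Il4ra fell 2.16-fold. In JAK-STAT control, Socs3, a feedback inhibitor of cytokine receptors, fell from 491, 467 and 562 CPM to 179, 187 and 178 CPM (2.8-fold, edgeR adjusted p 1.38e-13), and the kinase gene Jak2 fell 2.01-fold.

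Of 17 tested enzymes that make inflammatory mediators 8 were lower and 4 higher (median -0.39, and 9 and 6 with a median of -0.21 under offsets). Ptges, the inducible prostaglandin E synthase, stood at 26.7, 26.2 and 27.0 CPM with PBS and 5.90, 7.31 and 5.90 CPM with the particle, 4.18-fold lower with no overlap (edgeR adjusted p 2.82e-10). Acod1, which makes itaconate, fell 2.64-fold, from 1497, 1462 and 1795 CPM to 621, 661 and 522 CPM. Ptgs2, the inducible cyclooxygenase upstream of Ptges, did not follow: it stood at 809, 897 and 898 CPM against 1027, 1193 and 881 CPM, with overlapping groups and a small call higher (log2 fold change 0.25, edgeR adjusted p 0.0111, and 0.79 with offsets). That call was lost without PBS replicate 1 (0.2, edgeR adjusted p 0.0607) or P-Mn/TI@mHSA replicate 2 (0.13, edgeR adjusted p 0.165). It was also lost with total counts alone (0.17, edgeR adjusted p 0.0764). Limma on log2(FPKM + 1) and log2(FPKM + 0.1) did not give the call either (limma adjusted p 0.0543 and 0.0532). Ptgs1, the constitutive cyclooxygenase, rose 1.72-fold. Nos2 fell 2.42-fold and its value with P-Mn/TI@mHSA, 153 CPM, was close to the 161 CPM with P-Mn@mHSA (log2 difference -0.07, edgeR adjusted p 0.638). Arg1, the arginase that competes with Nos2 for arginine, was not tested, with at most 8 counts in a library.

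The phagocyte NADPH oxidase held 1 subunit gene with a fall of over 2-fold. Cybb (ENSMUSG00000015340, chromosome X), the gp91phox subunit that transfers the electrons to oxygen, stood at 259, 297 and 294 CPM with PBS and 55.5, 58.4 and 48.9 CPM with P-Mn/TI@mHSA. The fall was 5.22-fold, with a log2 fold change of -2.38 ± 0.0756 (SE, n = 3 per group, edgeR adjusted p 4.72e-16), and the mean with P-Mn@mHSA was 54.6 CPM. Its membrane partner Cyba stood at 469, 391 and 428 CPM against 422, 392.3 and 431 CPM, with a log2 fold change of -0.05 (edgeR adjusted p 0.558). On the FPKM scale, which allows levels of different genes to be set side by side, Cybb was at 48.3 ± 3.65 with PBS and 9.29 ± 0.859 with the particle (SD, n = 3), and Cyba at 410 ± 37 and 397 ± 18.3. Of the cytosolic subunits, Ncf1 was called higher with a log2 fold change of 0.18, and Ncf4 was not called (0.08, edgeR adjusted p 0.305, and -0.07 with offsets). With offsets Ncf1 was no longer called (-0.05, edgeR adjusted p 0.304) and Cyba was called lower (-0.21, edgeR adjusted p 0.000467), while Cybb kept a log2 fold change of -1.98. The call of Ncf1 was also lost without PBS replicate 1 (0.16, edgeR adjusted p 0.0509) and with total counts alone (0.1, edgeR adjusted p 0.159). The small GTPase gene Rac2 fell 1.16-fold.

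The inflammasome list leaned lower, 11 of 21 tested against 6 higher (median -0.3), with the same counts under offsets. Casp1, the protease that matures interleukin-1 beta, stood at 33.1, 30 and 31.3 CPM with PBS and 10.4, 14.6 and 15.3 CPM with the particle (2.33-fold lower, edgeR adjusted p 7.93e-07), and its mean with P-Mn@mHSA was 20.5 CPM (log2 difference -0.61, edgeR adjusted p 0.0332). The DNA sensor gene Aim2 fell 1.88-fold, from 46.5, 52.6 and 44.8 CPM to 25.1, 27.8 and 23.7 CPM. Nlrp3, the sensor of membrane damage, rose 1.28-fold, from 139, 158 and 182 CPM to 205, 220 and 186 CPM, and P2rx7, the ATP-gated channel that triggers it, rose 1.88-fold. Il18, the other substrate of caspase-1, was not called (41.6 against 39.9 CPM, log2 fold change -0.06), though with offsets it was called higher (0.27, edgeR adjusted p 0.00287). Il18 overlaps Bco2 on the other strand, which had 24.9% of its counts. These members lay on both sides of the list, with the sensor and its trigger higher and the protease and Il1b lower.

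Interferon-stimulated antiviral genes were higher in 35 of 60 tested of 65 in the table and lower in 7, with a median of 0.48. With GC and length offsets 43 were higher and 5 lower (median 0.54). Rsad2 (ENSMUSG00000020641, chromosome 12), which makes a chain-terminating nucleotide, stood at 12.4, 14.1 and 14.4 CPM with PBS and at 141, 154 and 118 CPM with the particle. Its neighbour Cmpk2, which supplies the nucleotide that viperin converts, rose 5.39-fold, from 13.3, 12.6 and 12.9 CPM to 65.0, 80.8 and 63.4 CPM, and Oasl2 rose 2.72-fold. All 3 genes were lower with P-Mn/TI@mHSA than with P-Mn@mHSA, by log2 differences of -0.84, -0.82 and -0.82 (edgeR adjusted p 2.05e-06, 8.26e-06 and 2.7e-06). Other members rose by smaller folds: Isg15, a ubiquitin-like modifier, went from 149, 123 and 138 CPM to 244, 255 and 223 CPM (1.76-fold), and Rnf213, a giant ubiquitin ligase, from 620, 747 and 671 CPM to 1326, 1404 and 1098 CPM (1.88-fold). Eif2ak2, the kinase PKR, and Gbp3, a guanylate-binding protein, fell 1.4-fold and 1.79-fold. The fall of Ifi202b, 1.77-fold, was lost with offsets (log2 fold change -0.06, edgeR adjusted p 0.557), in a transcript of 37.4% GC. The transcription factor genes Irf9 and Irf5 rose 1.53-fold and 1.64-fold, and Irf5 overlaps Tnpo3 on the other strand, which had 32.3% of its counts.

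Promoters of the interferon list were searched on both strands for the core of the interferon-stimulated response element (GAAA, any 2 bases, GAAA), because 2 genes that hold it, Rsad2 and Cybb, changed in opposite directions. The window runs from 250 bases before to 50 bases after the transcript start, in RefSeq sequence of build GRCm38.p6, and 9097 tested genes had such a promoter. The element was found in 27 of 50 list members (54%), in 3.94% of the tested genes and in 3.44% of the 32851 promoters of the table. Among all genes higher by 2-fold or more it was found in 4.44%, and among those lower by 2-fold or more in 5.25%. Of the 27 members with a match 12 were called higher and 5 lower, and of the 23 without one 16 were higher and 2 lower. The Rsad2 window, chr12:26456403-26456702 on the minus strand, holds 1 match, and the Cybb window, chrX:9469275-9469574 on the minus strand, holds 3 matches. Capitals mark the matches, read on either strand, in the 5′ to 3′ sequences of the gene's strand. A match describes the letters and shows neither a bound site nor a cause.
Rsad2: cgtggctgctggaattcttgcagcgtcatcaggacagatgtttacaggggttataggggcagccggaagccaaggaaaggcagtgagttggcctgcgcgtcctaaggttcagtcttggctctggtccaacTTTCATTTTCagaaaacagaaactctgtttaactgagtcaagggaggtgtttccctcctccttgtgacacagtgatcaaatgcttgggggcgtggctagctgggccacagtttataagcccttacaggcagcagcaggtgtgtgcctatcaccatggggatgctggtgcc
Cybb: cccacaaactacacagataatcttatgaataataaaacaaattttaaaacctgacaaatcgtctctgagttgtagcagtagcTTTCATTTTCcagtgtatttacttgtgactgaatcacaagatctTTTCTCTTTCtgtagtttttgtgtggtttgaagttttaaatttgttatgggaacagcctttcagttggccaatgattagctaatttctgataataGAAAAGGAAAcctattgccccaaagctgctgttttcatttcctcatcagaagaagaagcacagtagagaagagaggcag

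Markers of macrophage identity split evenly, 8 higher and 8 lower of 21 tested of 27 in the table, and the falls were the larger. Adgre1, the surface antigen F4/80, stood at 101, 96.8 and 115 CPM with PBS and 30.02, 28.5 and 25.1 CPM with P-Mn/TI@mHSA (3.74-fold lower, edgeR adjusted p 3.06e-13). Lyz2, lysozyme M, fell 3.62-fold from 1846, 1851 and 1847 CPM to 463, 479 and 590 CPM, and Mpeg1, the pore-forming protein perforin-2, 3.19-fold from 138, 133 and 147 CPM to 41.0, 48.6 and 41.6 CPM. Itgam, the CD11b integrin chain, fell 3.12-fold, though 66.3% of its 50-base words occur in other genes and its level is uncertain. Siglec1, the sialic-acid receptor CD169, fell from 343, 365 and 385 CPM to 158, 156 and 125 CPM (2.49-fold, edgeR adjusted p 1.99e-11). On the other side, Laptm5, a lysosomal membrane protein of blood cells, rose 1.88-fold from 643, 739 and 764 CPM to 1398, 1283 and 1359 CPM, and Fcgr1, the high-affinity IgG receptor, rose 1.46-fold. Spi1, the lineage factor PU.1, and Cd68 rose 1.3-fold and 1.23-fold, and the pan-leukocyte gene Ptprc fell 1.78-fold (log2 fold change -0.83, and -0.21 with offsets). Per length, Lyz2 was at 1390 ± 3.01 FPKM with PBS and 386 ± 50.9 with the particle (SD, n = 3), and Csf1r at 282 ± 15 and 414 ± 16.2, so Lyz2 was the higher of the 2 with PBS, and with the particle they did not differ beyond their spread.

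**Figure D4:**
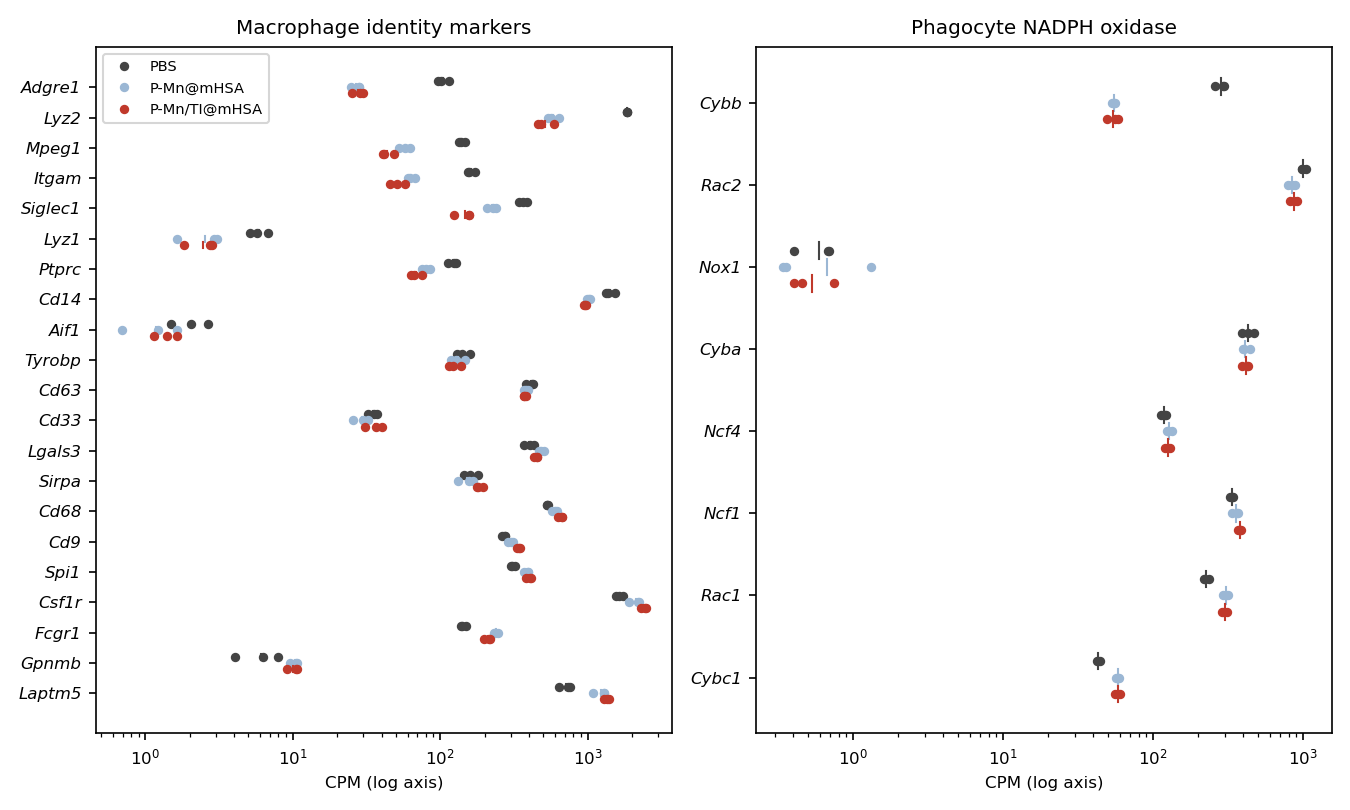
CPM on a log axis of the 21 tested macrophage markers (left) and 8 of the 9 tested NADPH oxidase genes (right), 1 point per library and a tick at the group mean, ordered by log2 fold change from lower to higher. Adgre1, Lyz2, Mpeg1, Itgam and Siglec1 with P-Mn/TI@mHSA (red) lie below all PBS libraries (dark), Laptm5 and Csf1r above them, and Cybb stands apart from the other oxidase subunits.

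Uptake receptors were lower in 11 of 24 tested and higher in 5 (median -0.46, and 8 and 6 with a median of -0.2 under offsets). Co-stimulatory and inhibitory receptors were lower in 13 of 26 and higher in 6 (median -0.24). Clec4e, the mycobacterial glycolipid receptor Mincle, stood at 212, 207 and 216 CPM with PBS and 64.1, 63.0 and 69.3 CPM with P-Mn/TI@mHSA (3.23-fold lower, edgeR adjusted p 2.44e-14). Its partner Clec4d fell 2.2-fold, the scavenger receptor Msr1 2.65-fold from 191, 190 and 192 CPM to 69.1, 67.3 and 80.1 CPM, and Axl, a receptor kinase for dying cells, 3.08-fold. The inhibitory receptor genes Lilrb4a and Lilrb4b fell 3.23-fold and 2.41-fold, with 47.2% and 24.5% of their 50-base words shared. Trem2, which binds lipids and lipoproteins, moved against them, from 39.2, 37.2 and 37.2 CPM to 110, 107 and 124 CPM (3-fold higher, edgeR adjusted p 7.18e-13). Lrp1, a large endocytic receptor, rose 1.86-fold. Of the PD-1 pathway, the receptor gene Pdcd1 stood at 12.2, 8.54 and 8.91 CPM with PBS and 105, 112 and 112 CPM with the particle, whereas its ligand gene Cd274 fell from 21.2, 26.0 and 26.5 CPM to 8.27, 8.35 and 7.30 CPM (3.08-fold, edgeR adjusted p 4.64e-09).

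Among AP-1, ATF and MAF factors 12 of 18 tested were higher and 5 lower (median 0.28), and with offsets 8 and 3. Fosb rose 8.55-fold from 1.58, 2.67 and 1.96 CPM to 16.9, 18.9 and 17.4 CPM, and Fos 3.02-fold from 13.96, 15.4 and 16.9 CPM to 47.1, 46.6 and 46.0 CPM. Among early-response genes and brakes of the MAP kinases 22 of 37 tested were higher and 12 lower (median 0.35), and with offsets 20 and 10. Egr1 rose 4.8-fold, from 29.6, 32.3 and 38.3 CPM to 171, 175 and 134 CPM, and Dusp5, a phosphatase that inactivates ERK and shares 20.5% of its 50-base words, rose 2.49-fold. The NR4A nuclear receptors, which stimulated macrophages also induce, fell. Nr4a1 fell from 25.2, 25.3 and 23.6 CPM to 12.5, 13.6 and 12.7 CPM (1.91-fold, edgeR adjusted p 5.12e-07), and Nr4a2 and Nr4a3 fell 1.73-fold and 2.17-fold. Batf, an AP-1 partner of interferon regulatory factors, was near the limit of detection after the particle, at 3.64, 2.46 and 3.31 CPM with PBS against 0, 0.196 and 0.067 CPM, and without P-Mn/TI@mHSA replicate 2 its log2 fold change was -6.23 in place of -5.01.

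Genes of the integrated stress response, which ATF4 drives when the translation factor eIF2 is phosphorylated, were higher in 30 of 42 tested and lower in 5 (median 0.28, and 25 and 7 with offsets). Ppp1r15a, the phosphatase subunit that ends the response, stood at 36.9, 36.3 and 44.0 CPM with PBS and at 170, 168 and 143 CPM with the particle (4.11-fold, edgeR adjusted p 1.03e-13). Mthfd1l, of mitochondrial one-carbon metabolism, rose 2.04-fold. The members that fell included Slc7a11, the cystine importer, from 156, 151 and 152 CPM to 63.9, 75.7 and 62.4 CPM (2.27-fold, edgeR adjusted p 3.44e-11), and Cth, which makes cysteine, 1.7-fold. Ddit3, encoding CHOP, was called lower by 1.54-fold, but overlaps Mars1 on the other strand, which had 1260% of its counts. In the unfolded protein response of the endoplasmic reticulum 10 of 28 tested were higher and 4 lower. Herpud1, of protein disposal from that compartment, and the factor Xbp1 rose 1.77-fold and 1.55-fold, and the chaperone Hsp90b1 fell 1.59-fold. Heat shock chaperones were 8 higher and 11 lower of 25 tested, and 11 and 7 with offsets.

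The hypoxia list was the one with the largest share of higher genes among those drawn. Prolyl hydroxylases mark the HIF-1 alpha protein for destruction when oxygen and iron are available, and the stabilised factor induces glycolytic enzymes, mitophagy receptors and the hydroxylases themselves. Of 37 tested of 42 in the table, 29 were higher and 4 lower (median 0.67), against 28 and 5 with offsets (median 0.68). Ndrg1, a stress-induced gene, stood at 45.2, 52.1 and 57.4 CPM with PBS and 311, 298 and 267 CPM with the particle. Ddit4, an inhibitor of mTORC1, rose 4.25-fold from 24.6, 20.6 and 27.4 CPM to 108, 102 and 98.7 CPM, and Bnip3, a mitophagy receptor, 4.1-fold from 24.2, 22.4 and 29.3 CPM to 96.1, 116 and 99.95 CPM, with 47.2% of its 50-base words shared. Egln1, the hydroxylase PHD2, rose 2.93-fold from 26.9, 29.5 and 32.7 CPM to 87.8, 88.0 and 85.2 CPM (edgeR adjusted p 9.59e-13). Gys1, glycogen synthase, rose 2.98-fold, though it overlaps Ruvbl2 on the other strand, which had 152% of its counts. Ankrd37, a target of HIF-1, rose 3.95-fold, from 1.72, 1.57 and 1.22 CPM to 5.01, 5.81 and 7.03 CPM, and Ufsp2 on the other strand had 1180% of its counts. The transcript of the factor itself went the other way: Hif1a stood at 118, 130 and 112 CPM with PBS and at 52.0, 61.6 and 51.9 CPM with P-Mn/TI@mHSA (2.18-fold lower, log2 fold change -1.12, edgeR adjusted p 2.13e-09, and -0.65 with offsets). Its partner Arnt fell 1.27-fold. Vegfa, a classical target, was not called (94.1 against 102 CPM, log2 fold change 0.11, and -0.06 with offsets). The P-Mn@mHSA means lay close to these values, at 299 CPM for Ndrg1, 121 CPM for Ddit4 and 119 CPM for Bnip3, and none of the 3 was called between the particle groups (edgeR adjusted p 0.845, 0.119 and 0.178).

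Of 35 tested glycolysis and lactate genes, 20 were higher and 7 lower (median 0.31, and 0.2 with offsets). Tpi1, triosephosphate isomerase, stood at 812, 732 and 809 CPM with PBS and 1641, 1593 and 1662 CPM with the particle (2.08-fold, edgeR adjusted p 1.27e-11), and Ldha, which makes lactate, rose 1.7-fold from 2622, 2391 and 2535 CPM to 4373, 4137 and 4304 CPM. The lactate exporter gene Slc16a3 and the glucose carrier gene Slc2a1 rose 2.24-fold and 2.13-fold, and Slc16a3 overlaps Csnk1d on the other strand, which had 24.7% of its counts. Slc2a6, a carrier of the lysosome, fell 1.97-fold from 104, 103 and 105 CPM to 56.7, 51.7 and 50.2 CPM. Pkm, pyruvate kinase, rose 1.23-fold, and with offsets it was not called (log2 fold change 0.03, edgeR adjusted p 0.466). It shares 25.8% of its 50-base words with other genes. Outside glycolysis, Idh1, the cytosolic isocitrate dehydrogenase, fell 2.53-fold from 91.8, 96.8 and 88.1 CPM to 36.7, 36.3 and 36.3 CPM, while the mitochondrial Idh2 rose 1.4-fold and Pgd, of the pentose phosphate route, 1.57-fold.

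Promoters of the hypoxia list were searched for ACGTG, the core of the hypoxia response element, on both strands in the same 300-base RefSeq windows. It was found in 21 of 32 members (65.6%), in 30.1% of the tested genes and in 19.6% of all promoters of the table. Among all genes higher by 2-fold or more it was found in 28.4%, and among those lower by 2-fold or more in 26.7%. Of the 21 with a match 15 were called higher and 3 lower, and of the 11 without one 9 were higher and 1 lower. Ddit4 and Bnip3 are shown because they are among the larger rises of this list and hold the letters within 200 bases before the start. Ddit4, chr10:59951721-59952020 on the minus strand, has 1 match starting at position -187, and Bnip3, chr7:138909457-138909756 on the minus strand, has 2 overlapping matches, 1 on each strand. Capitals mark the matches, and no match elsewhere says only that the letters are not in this window.
Ddit4: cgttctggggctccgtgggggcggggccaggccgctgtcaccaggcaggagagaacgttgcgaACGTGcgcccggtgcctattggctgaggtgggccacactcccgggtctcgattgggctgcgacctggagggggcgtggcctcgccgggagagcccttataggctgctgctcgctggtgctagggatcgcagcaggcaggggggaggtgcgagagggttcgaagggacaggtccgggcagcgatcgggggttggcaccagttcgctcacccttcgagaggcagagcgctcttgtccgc
Bnip3: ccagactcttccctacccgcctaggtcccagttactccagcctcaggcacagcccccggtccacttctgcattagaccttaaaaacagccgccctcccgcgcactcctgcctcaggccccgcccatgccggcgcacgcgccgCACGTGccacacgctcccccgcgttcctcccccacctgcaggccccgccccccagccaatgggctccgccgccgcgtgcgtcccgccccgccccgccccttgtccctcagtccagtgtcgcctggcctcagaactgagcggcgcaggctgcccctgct

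**Figure D5:**
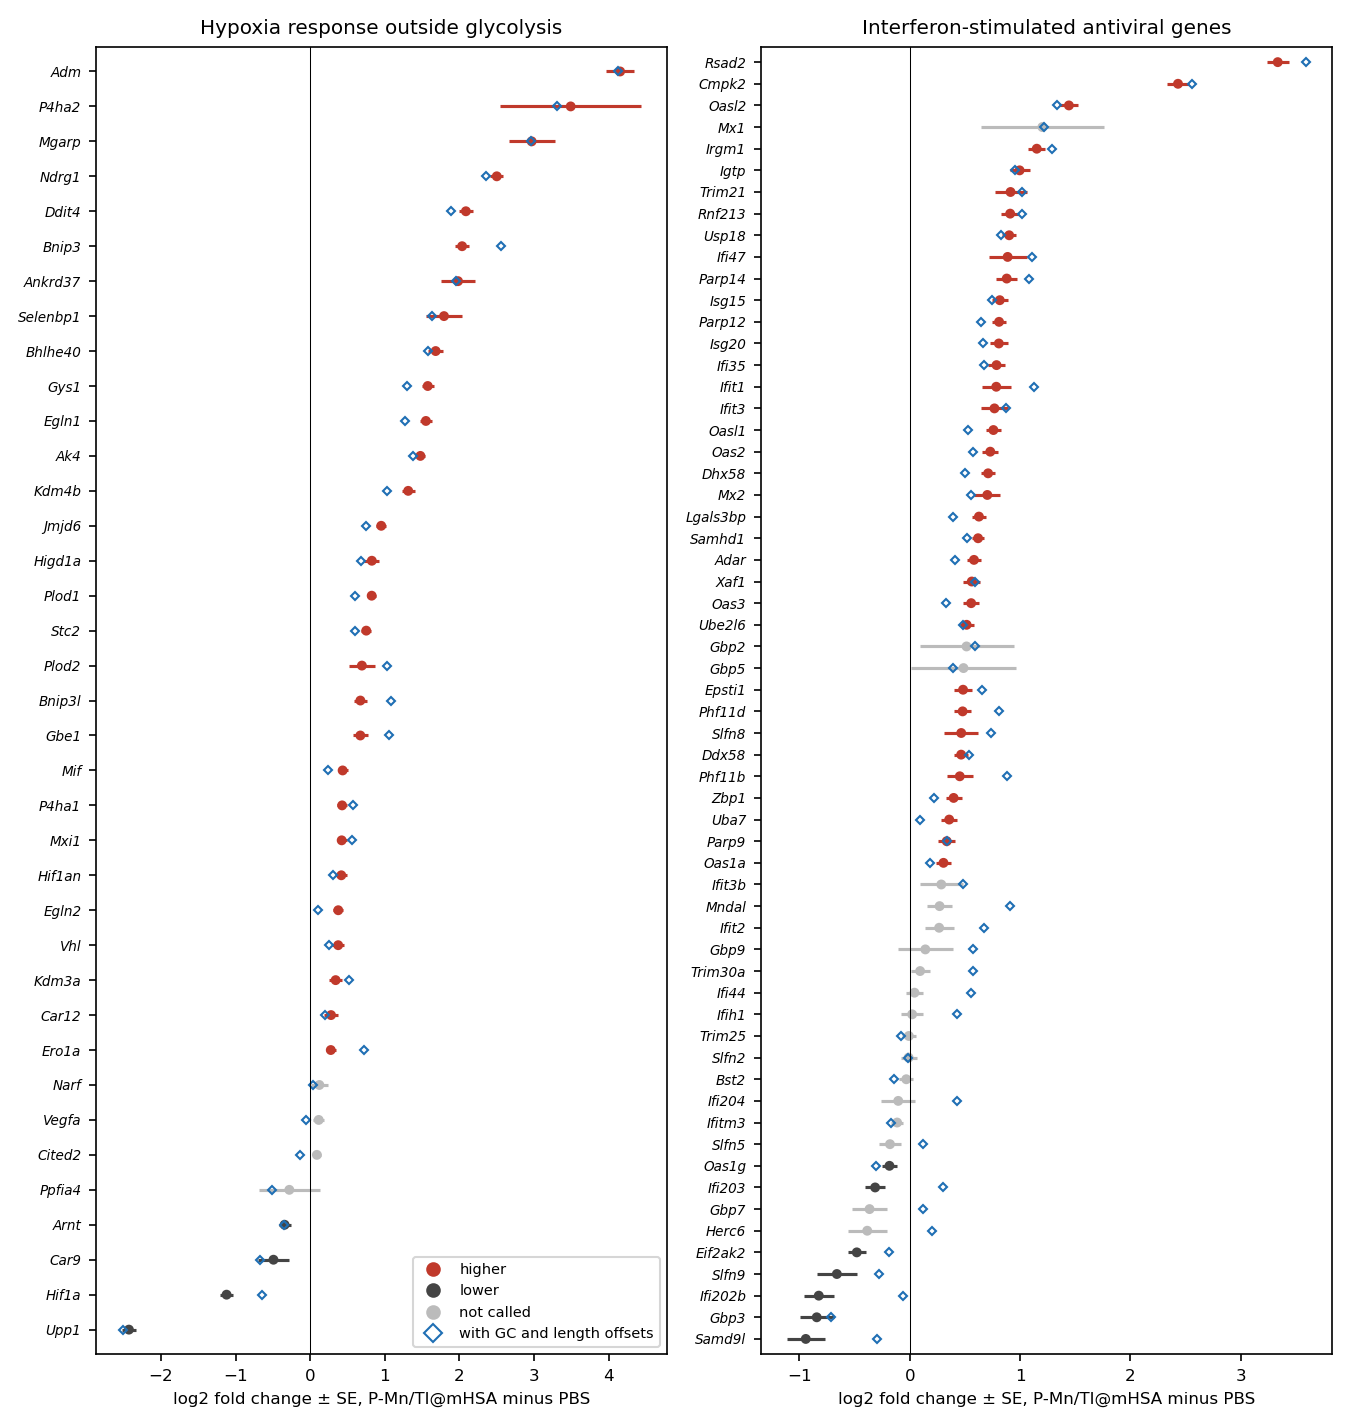
Log2 fold change ± SE (P-Mn/TI@mHSA minus PBS) of tested members of the hypoxia list (left) and of the interferon-stimulated list (right), coloured by call, with the value under GC and length offsets as open diamonds. In the hypoxia list 29 of 37 members are called higher and Hif1a and Upp1 lie on the lower side; in the interferon list Rsad2 and Cmpk2 stand apart from the other members.

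Redox genes did not move as a block. Among antioxidant enzymes 10 of 24 tested were higher and 8 lower (median 0.15), and among NRF2 targets and glutathione genes 10 of 31 and 12 (median -0.17). Gpx1, the cytosolic glutathione peroxidase, stood at 24.5, 26.4 and 26.7 CPM with PBS and 52.3, 42.3 and 63.1 CPM with the particle (2.03-fold, edgeR adjusted p 1.48e-07). Prdx5, a peroxiredoxin, fell 1.46-fold, and Trmt112 on the other strand had 31.5% of its counts. In unscaled counts, Sod2 stood at 3988, 3730 and 4352 with PBS and 2049, 2242 and 2164 with P-Mn/TI@mHSA, with 21% of its 50-base words shared. Sod1 stood at 5076, 4435 and 4697 against 5327, 5778 and 6373, and Scaf4 on the other strand had 32.6% of its counts. Cat, catalase, was called lower with overlapping groups (95.4, 107 and 111 CPM against 85.5, 88.7 and 96.5 CPM, edgeR adjusted p 0.0217), and the call was lost in 4 of the 6 fits that left out 1 library, without PBS replicate 2 or 3 or P-Mn/TI@mHSA replicate 1 or 2 (edgeR adjusted p 0.0562 to 0.111). Gstt1, a glutathione transferase, fell 4.24-fold from 21.2, 17.5 and 18.03 CPM to 5.49, 3.39 and 4.49 CPM, and Sqstm1, the autophagy receptor p62 and an NRF2 target, rose 2.02-fold from 1085, 1079 and 1230 CPM to 2408, 2401 and 2055 CPM. Keap1, which holds NRF2 in check, rose 1.6-fold.

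Of 40 tested genes of metal-ion handling, 11 were higher (27.5%) and 15 lower (37.5%), with a median of -0.09. Over all genes the shares were 27.1% and 27.3%, so the higher share was near that of all genes. With offsets 11 were higher and 13 lower (median -0.08). Members fell and rose within iron handling, and outside the list Hmox1, the heme oxygenase that releases iron from heme, rose 1.48-fold (edgeR adjusted p 1.36e-07). Lcn2, lipocalin-2, which binds bacterial iron carriers, stood at 243, 244 and 288 CPM with PBS and 68.03, 66.8 and 65.7 CPM with P-Mn/TI@mHSA, below the mean of 104 CPM with P-Mn@mHSA (3.86-fold below PBS, and log2 difference -0.64 between the particles, edgeR adjusted p 8.99e-06). Fth1, the ferritin heavy chain, fell from 10150, 9654 and 10600 CPM to 6315, 6363 and 6902 CPM (1.55-fold). Slc11a1, the NRAMP1 exporter of iron and manganese from phagosomes, fell 1.81-fold from 230, 248 and 241 CPM to 135, 130 and 132 CPM. Slc39a14, an importer of zinc, iron and manganese, rose 1.39-fold, and Slc30a4, a zinc carrier, fell 3.2-fold. The fall of the transferrin receptor gene Tfrc, 1.62-fold, was lost with offsets (log2 fold change -0.13, edgeR adjusted p 0.0797), and Cp, ceruloplasmin, which fell 4.86-fold, overlaps Hps3 on the other strand, which had 361% of its counts.

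Cholesterol synthesis was the list with the largest share of lower genes among those drawn, 20 of 26 tested against 2 higher (median -0.48, and 21 and 1 with a median of -0.45 under offsets). The enzymes run from acetyl-CoA to cholesterol and are induced together by the factor SREBP-2. Idi1, which makes an isoprenoid building block, stood at 32.2, 28.5 and 30.1 CPM with PBS and 9.76, 12.3 and 8.64 CPM with the particle, fully separated (2.96-fold lower, edgeR adjusted p 3.55e-08), with 25.3% of its 50-base words shared. The sterol enzyme gene Sc5d fell 1.78-fold, from 63.7, 67.8 and 60.6 CPM to 35.6, 37.1 and 35.0 CPM. Srebf2, the gene of the factor, was not called (473 against 458 CPM, log2 fold change -0.04), but was called lower with offsets (-0.3, edgeR adjusted p 4.52e-06). Scap, the sterol-sensing escort of SREBP-2, rose 1.42-fold. Abca1, an exporter of cholesterol, fell 5.78-fold, from 17.7, 17.7 and 17.6 CPM to 4.20, 2.68 and 2.28 CPM. Among LXR and cholesterol efflux genes 4 of 17 tested were higher (23.5%) and 5 lower (29.4%), near the 27.1% and 27.3% of all genes. Among genes of fatty acid synthesis and storage 11 of 40 were higher (27.5%) and 14 lower (35%), with a median of 0. In fatty-acid handling Scd1, which desaturates fatty acids, and Acsl4, which activates arachidonate, fell 2.28-fold and 2.52-fold, while Cpt1a, the gate to fatty-acid oxidation, rose 2.1-fold from 22.3, 26.7 and 23.9 CPM to 53.5, 48.6 and 51.0 CPM and Lpl, lipoprotein lipase, 1.48-fold. Both were also above P-Mn@mHSA, by log2 differences of 0.45 and 0.37 (edgeR adjusted p 0.00427 and 0.000605).

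In the TGF-beta and SMAD response 14 of 30 tested were higher and 5 lower (median 0.23). Pmepa1, a feedback inhibitor of the pathway, stood at 2.20, 3.01 and 2.16 CPM with PBS and 25.9, 23.03 and 30.3 CPM with the particle. The BMP-responsive genes Id1, Id2 and Id3, which block helix-loop-helix factors, rose 3.19-fold, 2.93-fold and 1.61-fold, and the inhibitory Smad7 2.06-fold. Id1 went from 12.7, 15.0 and 10.6 CPM to 37.0, 42.7 and 42.3 CPM. The receptor genes Bmpr2, Bmpr1a and Tgfbr1 were called lower, and each lost the call with offsets (-0.08, -0.1 and -0.02). Osteoclast genes, which RANK induces through TRAF6, were 7 higher and 4 lower of 17 tested. Nfatc1, the main osteoclast factor, rose 1.99-fold from 400, 440 and 436 CPM to 808, 867 and 859 CPM, and Dcstamp, which fuses precursor cells, 1.85-fold, while Ctsk, the osteoclast collagenase, was not tested with at most 6 counts in a library.

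DNA replication and G1/S genes were higher in 37 of 59 tested and lower in 6 (median 0.28), and mitotic genes were higher in 20 and lower in 30 of 60 (median -0.17). With offsets the first list held 35 and 2, and the second 18 and 19 with a median of 0.01. Ccnd1, cyclin D1, rose 2.03-fold from 328, 357 and 371 CPM to 737, 709 and 696 CPM, with 21.6% of its 50-base words shared, and the helicase subunit gene Mcm5 rose 1.61-fold. Cenpe, a kinetochore motor, stood at 35.3, 42.5 and 32.3 CPM with PBS and 7.39, 11.1 and 9.78 CPM with the particle (3.89-fold lower, -1.5 with offsets), and Mki67 fell 2.26-fold. Top2a, topoisomerase II alpha, was called lower, and with offsets was not called (0.07, edgeR adjusted p 0.308). Mitotic genes thus held both directions: Ncapd2, a condensin subunit, rose 1.6-fold while the condensin subunits Smc2 and Smc4 fell 2.5-fold and 2.65-fold, the first a transcript of 54% GC and the other 2 of 39.7 and 40.2% GC, and all 3 kept their call with offsets (0.46, -0.72 and -0.87).

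Among p53 targets 16 of 35 tested were higher and 8 lower (median 0.04). Cdkn1a, the cell cycle inhibitor p21, stood at 283, 302 and 320 CPM with PBS and 890, 832 and 773 CPM with the particle (2.76-fold, edgeR adjusted p 3.06e-13), and Plk3 rose 2.75-fold, while Fas, the death receptor, fell 7.96-fold from 5.71, 5.06 and 6.89 CPM to 0.407, 1.11 and 0.67 CPM. In the BCL2 family 8 of 17 tested were higher and 3 lower. Mcl1, which protects cells, and Bak1, which opens mitochondria, rose 1.55-fold and 1.45-fold. Among death receptor, caspase and IAP genes 2 of 23 were higher and 8 lower (5 and 6 with offsets). Cflar, which blocks caspase-8, stood at 192, 216 and 193 CPM with PBS and 81.4, 96.9 and 79.1 CPM with the particle (2.33-fold lower).

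Subunits of complex I, of complexes II and III and of the ATP synthase encoded in the nucleus were higher in 14 of 38, 7 of 13 and 9 of 17 tested and lower in 3, 1 and 2. With offsets the counts were 18, 9 and 10 higher and 3, 1 and 2 lower. Of 12 tested nuclear subunits of complex IV 2 were higher and 1 lower, and with offsets 5 and 2. For example, Atp5g1 rose 1.45-fold and Ndufa8 1.32-fold. Of 12 tested mitochondrially encoded mRNAs 8 were lower and 2 higher (median -0.36), and with offsets 1 lower and 7 higher (median 0.44), so their direction depends on the correction. mt-Co1 stood at 14340, 13130 and 11200 CPM with PBS and 6221, 7562 and 6891 CPM with the particle (1.87-fold lower, and -0.25 on the log2 scale with offsets), and mt-Nd2 rose 1.45-fold. Mitochondrial genes share 50-base words with other genes, 51.1% of them for mt-Co1 and 8.19% for mt-Nd2, so their counts are uncertain. Cytosolic ribosomal protein genes moved little, 9 higher and 13 lower of 77 tested with a median of -0.01. Long noncoding RNAs were 48 higher (7.04%) and 187 lower (27.4%) of 682 tested, against 27.1% and 27.3% over all genes. Their higher share was thus below that of all genes, and their lower share was near it (median -0.32, and 54 and 161 with offsets). Zinc finger factors of the C2H2 type were 66 higher (18.2%) and 140 lower (38.6%) of 363 (median -0.35). With offsets they were 62 and 96 with a median of -0.18. Other transcription factors were 165 higher and 103 lower of 430.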

How the data were processed

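RNA sequencing libraries of 9 RAW264.7 samples in 3 groups of 3 were used, with groups from the labels. The deposited table holds, per its header, whole-number read counts per gene and FPKM values made by the authors. The submitters' processing notes name cutadapt 1.9, FastQC and genome build GRCm38, without the role of each. The aligner, the counter and the counting strand: not given in the sources used here.

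The deposited counts were filtered with filterByExpr, scaled by TMM and fitted with edgeR 4.0.16 (R 4.3.3) in a model of the 3 groups over all 9 libraries. P-Mn/TI@mHSA was contrasted with PBS by the quasi-likelihood test, with Benjamini-Hochberg adjustment over 12454 genes and a threshold of 0.05. The procedure was also run on simulated data over 12454 genes. It found 68% of 50 genes made to differ 1.5-fold and 88% of another 50 at 2-fold, but 30% at the smallest fold simulated. It also called 9 unchanged genes. Only 50 genes differed at each simulated fold, whereas 54.4% of genes were called in the data, so these shares may not hold for this comparison. For values given beside single genes, the same model, test and adjustment also contrasted P-Mn/TI@mHSA with P-Mn@mHSA.

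Results were recomputed with a fit of the 6 libraries alone, RLE size factors, total counts without TMM, no filter beyond 1 count, DESeq2 1.42.0, limma 3.58.1 on the deposited FPKM as log2(FPKM + 1) and log2(FPKM + 0.1), a replicate block, and leaving out each library. Offsets for GC content and length of the longest GENCODE M21 transcript (splines of 5 degrees of freedom per library, genes of at least 2 CPM) were added after the data were seen.

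The comparison, gene lists and tests were chosen with earlier results of these data known. Genes were named by rule: the 12 largest rises and falls among called genes whose groups did not overlap, with a higher group mean of at least 20 CPM and at least 1 CPM in each library of the lower group; the 8 largest gains and losses in mean CPM; in each list the 3 called members with the lowest p per direction; and a few index genes such as Traf6, Nos2, Il1b and Tnf. Others, among them Lif, Csf1, Siglec1, Cd274, Egln1, Il18, Vegfa, Myd88 and Srebf2, were named after their values were seen. Words of 50 bases shared with other genes and counts of overlapping genes on the other strand were checked for the named genes: 34 share over 20% of their words. A few genes that the rule selects are not reported here. Promoters came from RefSeq. Figures used matplotlib 3.10.9 in Python 3.11.15.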

Additional observations from a re-analysis of the deposited data

How the results depend on the processing

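Over the planned fits the number of called genes ran from 6592 to 6975 outside DESeq2 (6409) and the fits that left out 1 library (6039 to 6388, with 3008 to 3147 higher and 3031 to 3248 lower, and 317 to 337 and 850 to 1001 at 2-fold or more). Of 349 called named genes, 302 kept direction and call in each of 15 alternatives. With total counts in place of TMM the higher share of the calls went from 49.8 to 39.4% and the median of all genes to -0.09 on the log2 scale. Limma on log2(FPKM + 1) found 123 genes higher and 201 lower at 2-fold or more, since that pseudocount shrinks low genes, and GC and length offsets left 553 lower. With these offsets the log2 fold change turned sign for Derl2 (0.13), Chordc1 (0.03), Zeb2 (0.06), Kcnq1ot1 (0.34), Ndufs4 (0.17), Uqcrb (0.29), Atp5pb (0.33), mt-Atp6 (0.02), Rpl5 (0.06), Ncf1 (-0.05), Ncf4 (-0.07), Top2a (0.07), Il18 (0.27), Vegfa (-0.06) and Myd88 (-0.07), and the cause was not tested. With total counts alone Traf6 was at -0.01 and Ncf4 at 0. Leaving out 1 library turned Cyba (0.02 without PBS replicate 1, over a range from -0.12), Il18 (0.02 without P-Mn/TI@mHSA replicate 1, from -0.13) and Srebf2 (0 without P-Mn/TI@mHSA replicate 3, from -0.11). With the replicate number as a block 6609 genes were called, 3280 higher and 3329 lower; deviations of same-numbered libraries correlated at -0.05, 0.049 and -0.005, so the numbers were not taken to pair the samples. Of 2700 list counts and medians under the alternatives 351 moved past their limits. With 3 libraries a group of 13994570 counts or more, genes of few counts had the widest errors, for example an SE of 0.56 for Batf.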

Other observations

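Members of further gene groups are given here. Over all genes tested 27.1% were called higher and 27.3% lower. Among myeloid transcription factors 15 of 33 tested were higher and 4 lower (median 0.25, against -0.01 over all genes). Gfi1, a repressor of myeloid genes, fell 5.65-fold, from 7.91, 7.93 and 6.89 CPM to 1.22, 0.979 and 1.81 CPM (edgeR adjusted p 2.31e-08), and it overlaps A430072P03Rik on the other strand, which had 15% of its counts. In autophagy 14 of 36 were higher (38.9%) and 9 lower (25%). The autophagy receptor gene Tax1bp1 fell 2.08-fold from 63.4, 62.2 and 56.0 CPM to 30.3, 30.4 and 26.6 CPM. In the lysosome and V-ATPase list 15 of 45 were higher (33.3%) and 12 lower (26.7%), near the shares of all genes.

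Nucleic acid sensing genes were 4 higher and 4 lower of 12 tested (33.3% each), near the shares of all genes. Ikbke, a kinase that activates interferon regulatory factors, fell 1.98-fold from 98.5, 98.7 and 97.1 CPM to 47.2, 53.2 and 48.4 CPM (edgeR adjusted p 1.58e-09), and its relative Tbk1 fell 1.46-fold. Antigen presentation genes were 9 higher and 4 lower of 26 (7 and 6 with GC and length offsets), and the immunoproteasome subunit gene Psmb10 rose 1.61-fold. In the matrix and urokinase list 9 of 29 were higher and 11 lower, and Plaur, the urokinase receptor, rose 1.41-fold from 138, 130 and 145 CPM to 196, 199 and 188 CPM, in the direction of Plau. Proteasome genes were 6 higher and 13 lower of 34 tested (9 and 8 with GC and length offsets).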
